A study of Homo sapiens with 16 samples.

Results

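The respiratory chain of human cells is built from the products of 2 genomes, and its transcripts were followed here through drug withdrawal in 2 melanoma lines made resistant to BRAF or MEK inhibitors. The genes were taken by name and place. One set holds all 28 genes of the table on the mitochondrial chromosome, of which 13 encode proteins, 2 are ribosomal RNAs and 13 are transfer RNAs. The other holds 83 nuclear protein-coding genes whose symbols begin with NDUFA, NDUFB, NDUFC, NDUFS or NDUFV and a number, UQCR, COX4 to COX8 or ATP5, or are SDHA to SDHD. NDUFB2 was left out because it lies in a segment amplified in A375. Together they make 111 of the 30813 genes counted. By complex the nuclear set holds 35 genes of complex I, 4 of complex II, 9 of complex III, 15 of complex IV and 20 of complex V. The complex was read from the symbol, with NDUFA4 and NDUFA4L2 placed in complex IV. ATP5S and ATP5SL, whose current symbols are DMAC2L and DMAC2, are thereby counted under complex V.

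Oxidative phosphorylation passes electrons from NADH through complex I, or from succinate through complex II, to complex III and then to oxygen at complex IV, and complex V makes ATP from the proton gradient that results. The mitochondrial genome encodes core subunits of complexes I, III, IV and V, whereas every subunit of complex II and the remaining subunits of the others are nuclear and imported. Mitochondrial RNA is made as long transcripts from each strand that are then cut at transfer RNAs, so the level of each mitochondrial mRNA depends on processing and decay as well as on transcription. In melanoma, MITF, the master factor of the melanocyte lineage, is known to drive PPARGC1A, a coactivator of nuclear respiratory genes.

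The off-drug groups were DR A375 cells moved to DMSO for 6, 24 or 48 h and 451Lu BR cells moved to DMSO for 24, 72 or 120 h. The on-drug groups were DR A375 cells in 0.5 μM dabrafenib, a BRAF inhibitor, with 0.05 μM trametinib, a MEK inhibitor, and 451Lu BR cells in 1 μM dabrafenib. Both are established lines with activated BRAF, called A375 and 451Lu below, and both are labelled as resistant to dabrafenib and trametinib although the treatment notes name dabrafenib alone for 451Lu. Each of the 8 groups had 2 libraries, 16 in all. The line, its drugs and its sampling times therefore cannot be told apart, and neither can withdrawal and time in culture, since no on-drug group was sampled at each later time. Whether both libraries of a group were grown separately is not stated in the labels, so the p-values measure the spread between these libraries, which may be technical. All 3 off-drug comparisons of a line share that line's on-drug libraries.

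Total counts ran from 9714190 to 16691725 per library. Levels are CPM, counts per 1000000 counts of the library, scaled within each line by TMM factors, and are relative to all other RNA, so in these bulk samples fewer cells of a kind and less RNA per cell cannot be told apart. A gene is said to have risen or fallen where edgeR's quasi-likelihood test gave an adjusted p below 0.05 over all genes tested in the line, and changes are log2 fold changes ± SE, off drug against on drug unless stated. Both lines expressed melanocyte genes. The summed level of 10 melanocyte and melanoma markers lay between 2250.0 and 3583 CPM off drug in A375, against 5680.2 and 5804 CPM on drug, and between 1381 and 2810.0 CPM off drug in 451Lu, against 11129 and 11757 CPM on drug. Of the 10 markers 9 fell and 1 rose in A375 at 48 h, when 36.0% of all genes fell, and 7 fell and 2 rose in 451Lu at 120 h, when 36.6% fell. The risers were CSPG4 in A375, at 1240.4 CPM at 48 h, against 252 CPM on drug, and CSPG4 and PAX3 in 451Lu. Summed markers of other cell types lay between 59.6 and 80.6 CPM in A375 off drug, against 66.5 and 70.4 CPM on drug. In 451Lu they lay between 80.1 and 182 CPM off drug, against 164 and 175 CPM on drug, and within that sum PECAM1 averaged 111 CPM at 120 h while VWF, another endothelial marker, averaged 0.343 CPM. KRT18, an epithelial keratin, was called higher at every time in both lines. It averaged 49.9 CPM at 48 h in A375, against 18.8 CPM on drug. In 451Lu it averaged 48.4 CPM at 120 h, against 19.0 CPM on drug. EPCAM, another epithelial marker, reached at most 0.059 CPM. CDH1, an epithelial cadherin, was called lower at every time in 451Lu and averaged 0.118 CPM at 24 h, against 10.3 CPM on drug. In A375 CDH1 averaged 0.0911 CPM at 48 h, against 0.815 CPM on drug. LUM, a fibroblast marker, fell at every time in both lines. COL1A1, also a fibroblast marker, had a higher mean at the last time than on drug in both lines. The mean of DCN, another fibroblast marker, was higher at 120 h in 451Lu but lower at 48 h in A375. In 451Lu COL1A1 and DCN averaged 7.39 and 3.94 CPM at 120 h, against 0.286 and 0.0876 CPM on drug. In A375 they averaged 1.69 and 0.09 CPM at 48 h, against 0.476 and 0.334 CPM on drug. FN1, a mesenchymal matrix gene, took 6.15% and 6.25% of all 451Lu counts at 120 h, against 0.0671% and 0.0741% on drug. The part of these shifts in the results below was not tested.

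The ratio of mitochondrial to nuclear transcripts was lower off drug at every time in A375 and at 24 h in 451Lu, and higher at 72 h and 120 h in 451Lu, times at which A375 was not sampled. In A375 the summed mitochondrial mRNAs were 44824 and 38599 CPM on drug, 29360.1 and 28894 CPM at 6 h, 34684 and 32939 CPM at 24 h and 21616 and 28069 CPM at 48 h. The off-drug libraries all lay below the on-drug ones, and the pair at 48 h was the widest apart. The summed nuclear set moved much less, with 9163 and 9235 CPM on drug, 8186 and 8303 CPM at 6 h, 9149.8 and 8988 CPM at 24 h and 8126 and 8559.9 CPM at 48 h. The ratio of the 2 sums, which does not depend on the scaling, was 4.89 and 4.18 on drug, 3.59 and 3.48 at 6 h, 3.79 and 3.66 at 24 h and 2.66 and 3.28 at 48 h. Every off-drug library of A375 was thus below both on-drug libraries, although replicate 2 at 48 h stood only a little below the 6 h pair.

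In 451Lu the order was different. The summed nuclear set was 9379.7 and 9151 CPM on drug, 7966 and 7990.0 CPM at 24 h, 6966 and 6981 CPM at 72 h and 5977 and 5888 CPM at 120 h, lower at each later time with no overlap between groups. The mitochondrial mRNAs were 47890.5 and 43192 CPM on drug, 34639 and 34556 CPM at 24 h, 42272 and 38526 CPM at 72 h and 42823 and 50098 CPM at 120 h, so they were lowest at 24 h and overlapped the on-drug libraries at 120 h. The ratio of mitochondrial to nuclear transcripts was accordingly 5.11 and 4.72 on drug, 4.35 and 4.32 at 24 h, 6.07 and 5.52 at 72 h and 7.16 and 8.51 at 120 h. With every gene weighted equally, the log2 ratio was 5.37 and 5.15 at 72 h, against 5.27 and 5.10 on drug, and these ranges overlapped. In that weighting the A375 ratio was lower at 24 h than at 6 h (4.71 and 4.71, against 4.95 and 4.93), whereas that of the sums was higher. As group means the ratio of the sums was 2.97 ± 0.438 in A375 at 48 h, against 4.54 ± 0.504 on drug. In 451Lu it was 7.84 ± 0.95 at 120 h, against 4.91 ± 0.273 on drug (SD, n = 2 each). No test was made on the ratio, which was formed from genes chosen with earlier results of these data known.

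**Figure D1:**
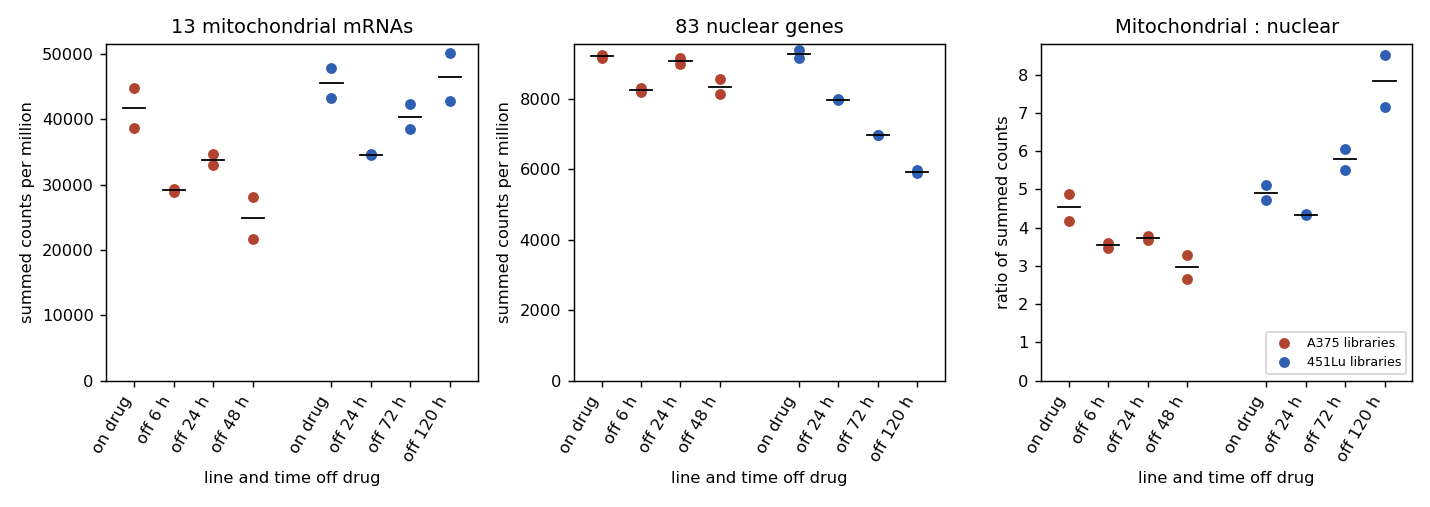
Summed CPM of the 13 mitochondrial mRNAs (left) and the 83 nuclear genes (middle), and the ratio of the 2 sums (right), for each group on the x axis; points are the 2 libraries of a group and bars their mean. In A375 the ratio was lowest at 48 h (2.66 and 3.28), whereas in 451Lu it was highest at 120 h (7.16 and 8.51), where the nuclear sum was lowest.

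Within the mitochondrial genome of A375 the genes did not move as a block. At 6 h 11 of the 13 mRNAs fell and 1 rose, with a median log2 fold change of -0.43, against -0.06 over all genes tested, of which 35.1% rose and 38.1% fell. At 24 h 9 fell and none rose (median -0.34; 36.2% of all genes rose and 36.3% fell). At 48 h all 13 fell, with a median of -0.69 (36.6% of all genes rose and 36.0% fell). The 13 are not independent: in the 48 h pair 12 of them were lower in replicate 1, and in the on-drug pair 12 were higher in replicate 1. The nuclear copies MTATP6P1 and MTND2P28 together held 261 to 521 CPM in a library, so reads can be shared between them and MT-ATP6 or MT-ND2.

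MT-ND6, a complex I subunit and the only protein that the light strand encodes, had the widest course. Its level was 109.7 and 110.2 CPM on drug, 177 and 183 CPM at 6 h, 42.4 and 50.1 CPM at 24 h and 34.6 and 30.4 CPM at 48 h. Both 6 h libraries were above, and all 4 later ones below, the on-drug pair. The changes were 0.71 ± 0.056 at 6 h (adjusted p = 1.32e-13), -1.26 ± 0.064 at 24 h (adjusted p = 1.26e-18) and -1.76 ± 0.071 at 48 h (adjusted p = 1.28e-21). As a share of the 13 mRNAs, MT-ND6 was 0.605 and 0.634% at 6 h and 0.16 and 0.108% at 48 h, against 0.245 and 0.286% on drug. How strand was treated in the counting is not given in the sources used here, so reads of heavy-strand RNA opposite MT-ND6 cannot be told apart from its own.

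MT-ND1, a heavy-strand complex I subunit next to the ribosomal RNA genes, was 1026 and 820.1 CPM on drug, 1063 and 1019 CPM at 6 h, 378 and 368 CPM at 24 h and 312 and 442 CPM at 48 h. The 24 h and 48 h libraries lay wholly below the others, with changes of -1.31 ± 0.083 (adjusted p = 6.79e-16) and -1.29 ± 0.084 (adjusted p = 1.09e-15). At 6 h its value of 0.17 ± 0.080 missed the threshold (adjusted p = 0.054). MT-CYB, the mitochondrial subunit of complex III, was 4019.9 and 3081 CPM on drug, 2231 and 2155 CPM at 6 h, 1513 and 1503 CPM at 24 h and 1156 and 1658 CPM at 48 h. It fell at every time, by 1.62-fold at 6 h, 2.36-fold at 24 h and 2.52-fold at 48 h, and no off-drug library reached the on-drug range.

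Other complex I mRNAs had libraries within the on-drug range again at 24 h. MT-ND5 was 2662 and 2141 CPM on drug, 1516 and 1458 CPM at 6 h, 2557 and 2547 CPM at 24 h and 1500.1 and 2036 CPM at 48 h. MT-ND4 was 9650.3 and 8454 CPM on drug, 5945 and 5715 CPM at 6 h, 9447 and 8478 CPM at 24 h and 6190.1 and 7931 CPM at 48 h. Both fell at 6 h, by 1.62-fold and 1.55-fold, and at 24 h their values of 0.09 ± 0.077 and -0.01 ± 0.065 did not pass the test (adjusted p = 0.305 and 0.852). Between 6 h and 24 h MT-ND5 rose by 0.78 ± 0.077 and MT-ND4 by 0.62 ± 0.066, while MT-ND6 fell by 1.97 and MT-ND1 by 1.48 on the log2 scale. In that step 6 of the 13 mRNAs rose and 4 fell, against 35.5% and 34.2% of all genes.

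The 3 mitochondrial subunits of complex IV, which form its catalytic core, fell further between 24 h and 48 h. MT-CO1 was 10277 and 9006 CPM on drug, 6397 and 6277 CPM at 6 h, 7983 and 7874 CPM at 24 h and 4027 and 5256 CPM at 48 h. From 24 h to 48 h it fell by 0.77, MT-CO3 by 0.56 and MT-CO2 by 0.45 on the log2 scale. Against on-drug cells the 48 h changes were -1.05 ± 0.065, -0.90 ± 0.053 and -0.88 ± 0.068 (adjusted p = 2.89e-16, 5.11e-17 and 1.1e-13). Of the 13 mRNAs 10 fell in this step and none rose, against 15.7% and 14.2% of all genes. MT-ATP6 and MT-ATP8, the subunits of complex V, whose genes overlap each other so that reads can be split between them, fell by 0.58 and 0.54 at 48 h against on drug.

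The 2 ribosomal RNAs took other courses than the mRNAs. MT-RNR1, the small subunit RNA, was 954 and 1041 CPM on drug, 1179.6 and 1151 CPM at 6 h, 964 and 1029 CPM at 24 h and 1084 and 1182 CPM at 48 h. It rose at 6 h by 0.22 ± 0.047 and at 48 h by 0.18 ± 0.047 (adjusted p = 7.24e-05 and 0.000765), and no library of these times overlapped the on-drug pair. MT-RNR2, the large subunit RNA, was 3614 and 2892 CPM on drug, 2711 and 2619 CPM at 6 h, 3155 and 3048 CPM at 24 h and 3323 and 4300.5 CPM at 48 h, and its on-drug and 48 h ranges overlapped. Its rise of 0.23 at 48 h was lost without on-drug replicate 2 (0.08, adjusted p = 0.356) or without 48 h replicate 2 (0.03, adjusted p = 0.613), and its fall of 0.29 at 6 h was lost without on-drug replicate 1 (-0.11, adjusted p = 0.159). Set against the mRNAs of the same library, which removes scaling and mitochondrial share, the 2 ribosomal RNAs together made 10.2 and 10.2% of the summed mRNA counts on drug, 13.3 and 13% at 6 h, 11.9 and 12.4% at 24 h and 20.4 and 19.5% at 48 h. Mature ribosomal RNA is far more abundant in cells than this, and whether the libraries were enriched for polyadenylated RNA is not given in the sources used here.

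**Figure D2:**
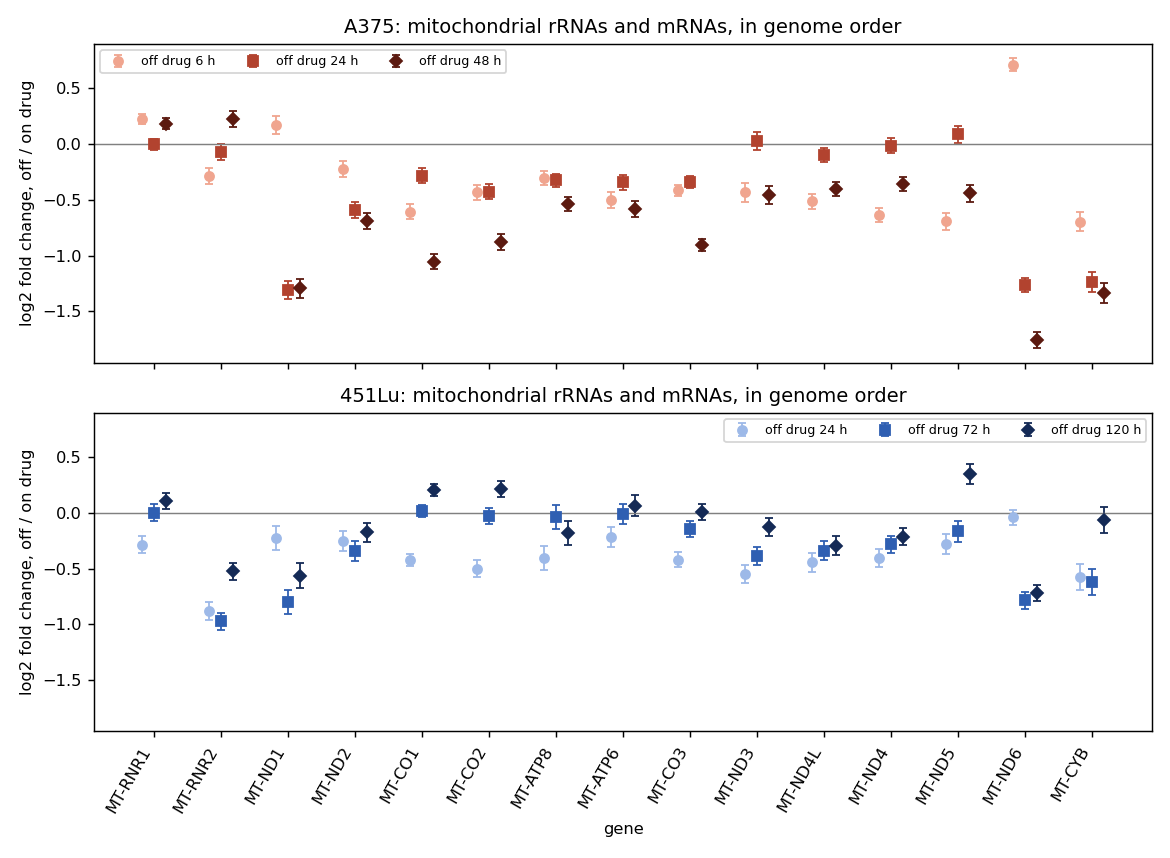
Log2 fold changes off drug against on drug (y axis) of the 2 mitochondrial ribosomal RNAs and 13 mRNAs in their order along the genome (x axis), for A375 (top) and 451Lu (bottom); symbols are the 3 times off drug and bars the SE of the fit to 8 libraries per line. In A375 MT-ND1, MT-ND6 and MT-CYB stood lowest at 24 h while MT-ND3, MT-ND4 and MT-ND5 were near 0; in 451Lu MT-RNR2 was lowest at 24 h and 72 h.

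In 451Lu the mitochondrial mRNAs fell early and then partly returned. At 24 h 10 of the 13 fell and none rose (median -0.41, against 0.03 over all genes tested, of which 24.9% fell and 29.2% rose). The 24 h calls of MT-ND2, MT-ND5 and MT-ATP8 were lost without on-drug replicate 1 (adjusted p = 0.299, 0.188 and 0.115), and that of MT-RNR1 without 24 h replicate 1 or on-drug replicate 2 (adjusted p = 0.0815 and 0.0647). Those of MT-ND2 and MT-ND5 were lost without 24 h replicate 1 too (adjusted p = 0.0584 and 0.0923), and that of MT-ND2 also without 24 h replicate 2 (adjusted p = 0.115). At 72 h 7 fell and none rose (median -0.28; 33.4% of all genes fell and 34.2% rose). At 120 h 4 fell and 3 rose (median -0.13; 36.6% and 37.3%). Without on-drug replicate 1 the calls among all mitochondrial genes at 72 h numbered 5 rather than 8.

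The 4 mRNAs that were called lower at 120 h, MT-ND6, MT-ND1, MT-ND4 and MT-ND4L, all encode subunits of complex I. The calls of MT-ND4 (-0.21 ± 0.079) and MT-ND4L (-0.29 ± 0.084), whose genes overlap, were lost without on-drug replicate 1 (adjusted p = 0.209 and 0.103). MT-ND6 was 141 and 136 CPM on drug, 138 and 132 CPM at 24 h, 88 and 73.4 CPM at 72 h and 83.4 and 84.9 CPM at 120 h, so that the 24 h pair overlapped the on-drug pair and the later 4 libraries lay below both. Its changes were -0.78 ± 0.074 at 72 h and -0.72 ± 0.072 at 120 h (adjusted p = 8.82e-08 and 1.41e-07). MT-ND1 was 1741 and 1399 CPM on drug, 1389.8 and 1292 CPM at 24 h, 995 and 812 CPM at 72 h and 947 and 1179.9 CPM at 120 h, and fell by 0.80 at 72 h and 0.56 at 120 h on the log2 scale. MT-CYB was 2941 and 2320.2 CPM on drug, 1801 and 1729 CPM at 24 h, 1802 and 1618 CPM at 72 h and 2121 and 2918 CPM at 120 h, lower than on drug at 24 h and 72 h and overlapping it at 120 h.

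The 3 mRNAs that rose at 120 h were MT-ND5, MT-CO1 and MT-CO2, with changes of 0.35 ± 0.091, 0.21 ± 0.054 and 0.22 ± 0.073. All 3 calls were lost without 120 h replicate 2, in which all 13 mRNAs were higher than in replicate 1: the values were then 0.12, 0.10 and 0.08 (adjusted p = 0.174, 0.156 and 0.382). From 72 h to 120 h 5 of the 13 mRNAs rose and none fell, against 16.6% and 16.1% of all genes, and without the same library 3 rather than 6 mitochondrial genes were called in that step. From 24 h to 72 h 4 rose and 2 fell, against 25.9% and 25.5% of all genes.

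MT-RNR2 had the largest fall of the 15 ribosomal RNAs and mRNAs of 451Lu at 24 h and at 72 h. Its level was 6600.4 and 5650.1 CPM on drug, 3219 and 3439 CPM at 24 h, 3188 and 3053 CPM at 72 h and 3956 and 4573 CPM at 120 h, and every off-drug library was below the on-drug pair. It fell by 1.84-fold at 24 h, 1.96-fold at 72 h and 1.44-fold at 120 h (adjusted p = 6.25e-08, 9.96e-09 and 1.16e-05). MT-RNR1 was 1177 and 1259 CPM on drug, 931 and 1069 CPM at 24 h, 1159 and 1283 CPM at 72 h and 1239 and 1385 CPM at 120 h, with values of 0.00 ± 0.075 at 72 h and 0.11 ± 0.075 at 120 h that did not pass the test. The ribosomal RNAs made 16.2 and 16% of the mRNA counts on drug, 12 and 13% at 24 h, 10.3 and 11.3% at 72 h and 12.1 and 11.9% at 120 h, lower off drug in every library, whereas in A375 every off-drug library was higher. That opposite course of the share was not tested as such, but the 24 h change of MT-RNR2 itself differed between the lines (A375 minus 451Lu 0.88 ± 0.13, adjusted p = 4.27e-06).

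MT-TL1, the transfer RNA for leucine that separates MT-RNR2 from MT-ND1, is shown because of the genes on its 2 sides MT-ND1 was called lower in A375 at 24 h and 48 h and MT-RNR2 was not. The reverse split was seen in 451Lu at 24 h, when MT-RNR2 fell and MT-ND1 was not called (-0.23 ± 0.11, adjusted p = 0.0909). In A375 at 6 h MT-RNR2 was also called lower and MT-ND1 was not, although that MT-RNR2 call depended on a single on-drug library. In 451Lu both MT-RNR2 and MT-ND1 fell at 72 h and 120 h. MT-TL1 holds the site at which MTERF1, a transcription termination factor, is known to bind. The capitals mark the letters TGGCAGAGC that were searched for within it, which begin at base 8 of its 75 bases (GRCh38, chrMT:3230-3304, the strand of the gene, from the GENCODE transcripts).
MT-TL1: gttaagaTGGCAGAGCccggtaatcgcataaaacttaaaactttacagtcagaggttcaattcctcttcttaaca
Read counts over MT-TL1 were too few to describe: it passed the filter on low counts only in 451Lu, at most 1.39 CPM in any library, and the other 12 transfer RNAs passed in neither line. All 13 transfer RNA genes together had 2 to 30 counts per library. MTERF1 itself was at 9.4 ± 0.221 CPM at 24 h and 11.7 ± 0.321 CPM at 48 h in A375, against 18.3 ± 0.794 CPM on drug (SD, n = 2 each), and it rose at 6 h (0.34 ± 0.098) and fell at 24 h (-0.96 ± 0.11) and 48 h (-0.64 ± 0.11). In 451Lu its change was 0.25 ± 0.090 at 24 h (adjusted p = 0.0302), and -0.07 ± 0.097 and -0.04 ± 0.094 at the later times, which did not pass the test. Whether MTERF1 bears on the levels of MT-ND1 or the ribosomal RNAs was not tested.

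Per kilobase of gene, the mitochondrial mRNAs also differed widely from each other. In A375 on drug MT-ND4 had 6569, MT-CO2 6419 and MT-CO1 6253 CPM per kilobase as group means, against 966 for MT-ND1 and 209 for MT-ND6. At 48 h MT-ND4 stood at 5124, MT-CO2 at 3491 and MT-CO1 at 3010.2 CPM per kilobase. Of the 3, MT-ND4 thus kept the highest level per length at 48 h. In 451Lu MT-CO1 had 9010.2 at 120 h, against 7788 CPM per kilobase on drug, and MT-ND6 had 160.3, against 264 on drug.

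The nuclear respiratory genes of 451Lu fell together and went on falling. Of the 75 that could be tested 51 fell and 4 rose at 24 h, 57 fell and 3 rose at 72 h, and 66 fell and none rose at 120 h, while 24.9%, 33.4% and 36.6% of all genes fell and 29.2%, 34.2% and 37.3% rose. Their median log2 fold change was -0.25 at 24 h, -0.41 at 72 h and -0.63 at 120 h, against 0.03, 0.00 and 0.00 over all genes tested. At 120 h 13 of the 75 were at or below a log2 fold change of -1, that is at least 2-fold lower, and all 13 passed the test. In the steps between times 33 fell and 3 rose from 24 h to 72 h (25.5% and 25.9% of all genes), and 45 fell and none rose from 72 h to 120 h (16.1% and 16.6%).

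Every complex took part. At 120 h 28 of 33 genes of complex I fell (median -0.56), 4 of 4 of complex II (-0.54), 8 of 8 of complex III (-0.70), 11 of 12 of complex IV (-0.66) and 15 of 18 of complex V (-0.79). The differences between these medians were not tested. ATP5G1, one of 3 genes for the c subunit that forms the membrane ring of ATP synthase, had the largest fall. Its level was 84.2 and 80 CPM on drug, 57.4 and 57.4 CPM at 24 h, 40.2 and 38.8 CPM at 72 h and 27.8 and 26.4 CPM at 120 h. Each group lay below the one before it, and the changes were -0.52 ± 0.065, -1.06 ± 0.070 and -1.60 ± 0.073 (adjusted p = 4.89e-06, 1.15e-09 and 5.28e-12). The other c subunit genes, ATP5G2 and ATP5G3, which encode the same mature protein, fell by 1.82-fold and 2.13-fold at 120 h, against 3.03-fold for ATP5G1.

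ATP5C1, the gamma subunit of the rotor, was 68.5 and 74.2 CPM at 120 h, against 177 and 174 CPM on drug (-1.30 ± 0.062). COX7C, a small subunit of complex IV, was 41.3 and 43.8 CPM at 120 h, against 105 and 100.2 CPM on drug (-1.27 ± 0.075). UQCR10, a small subunit of complex III, was 63.8 and 62.3 CPM at 120 h, against 148 and 138 CPM on drug (-1.18 ± 0.063). For these 3 genes the groups did not overlap, and the adjusted p was 1.12e-11, 1.53e-10 and 4.12e-11. Among accessory subunits of complex I, NDUFB1 fell by 2.28-fold, NDUFB6 by 2.27-fold and NDUFC2 by 2.18-fold. COX5A, a complex IV subunit of the matrix side, fell by 2.11-fold, and SDHB, the iron-sulfur subunit of complex II, by 1.79-fold.

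NDUFS7, an iron-sulfur core subunit of complex I, fell at each time, with 32.6 and 28.9 CPM at 120 h, against 65 and 66.5 CPM on drug (-1.09 ± 0.079). NDUFS1 and NDUFS8, which are also core subunits of complex I, were called higher at 72 h, by 0.13 ± 0.054 and 0.36 ± 0.11, but NDUFS1 was lost without on-drug replicate 1 (adjusted p = 0.178) and NDUFS8 without on-drug replicate 2 (adjusted p = 0.115).

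**Figure D3:**
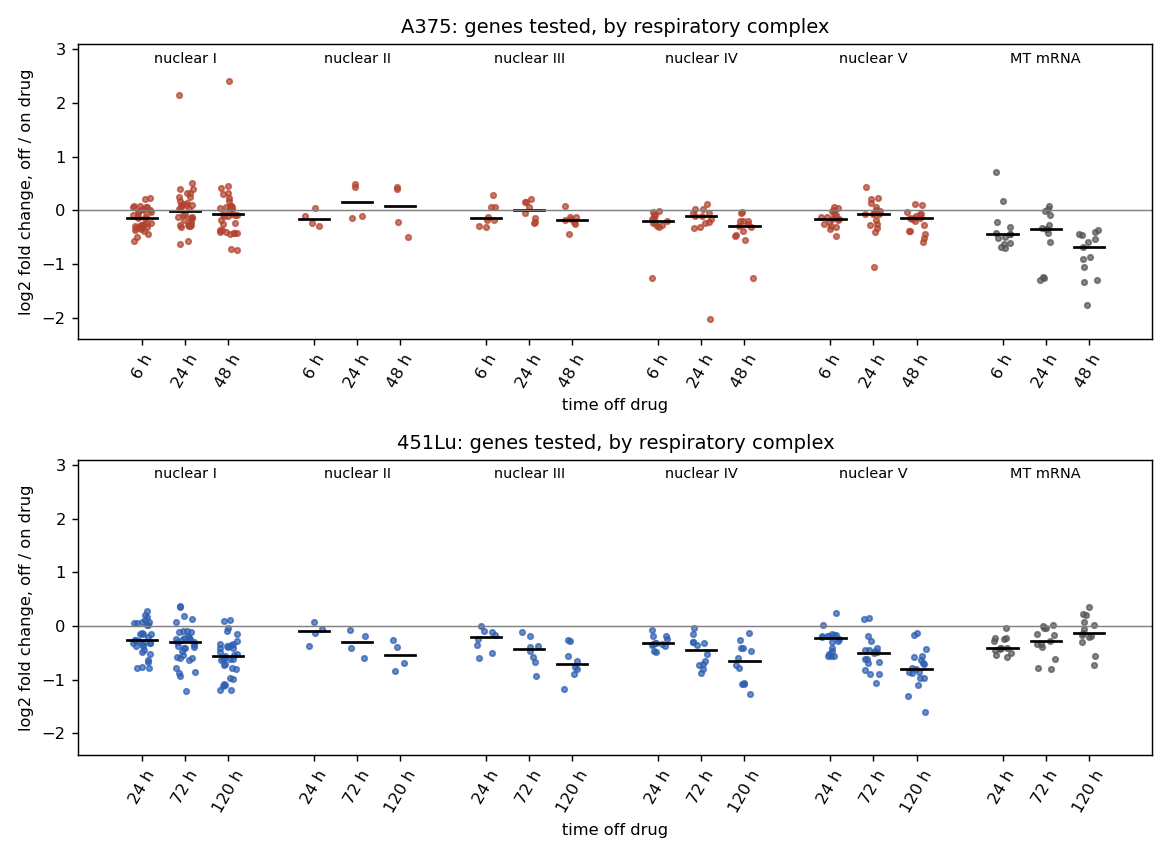
Log2 fold changes off drug against on drug (y axis) of the nuclear genes tested, by complex, and of the 13 mitochondrial mRNAs (grey), at each time (x axis), for A375 (top) and 451Lu (bottom); each point is a gene and each bar the median of its column. In 451Lu the nuclear medians were lowest at 120 h, while the mitochondrial median was nearest 0 there; in A375 the mitochondrial median was lowest at 48 h.

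In A375 the nuclear genes moved less and in both directions. Of 76 tested, 40 fell and 2 rose at 6 h (38.1% and 35.1% of all genes), 28 fell and 18 rose at 24 h (36.3% and 36.2%), and 42 fell and 8 rose at 48 h (36.0% and 36.6%). The medians were -0.16, -0.06 and -0.16, against -0.06, -0.02 and 0.00 over all genes tested. Between 6 h and 24 h 34 rose and 8 fell, 42 in all, against 35.5% and 34.2% of all genes. Without 24 h replicate 1 the calls in that step numbered 26. From 24 h to 48 h 20 fell and 2 rose (15.7% and 14.2% of all genes), 22 in all, and 14 without 24 h replicate 1 or without 48 h replicate 1.

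Complex II, which has no mitochondrially encoded subunit, was the one complex of A375 whose median was above 0 at both 24 h and 48 h (0.16 and 0.09), and its 4 genes split into pairs. SDHA, the flavoprotein that oxidises succinate, was 113 and 116 CPM on drug, 106 and 107 CPM at 6 h, 164 and 159 CPM at 24 h and 149 and 151 CPM at 48 h. SDHB was 144 and 147 CPM on drug, 146 and 153 CPM at 6 h, 194 and 197 CPM at 24 h and 200.4 and 195 CPM at 48 h. Both were higher in all 4 libraries of 24 h and 48 h than in the other 4, with changes at 24 h of 0.50 ± 0.049 and 0.43 ± 0.047 (adjusted p = 4.14e-11 and 7.59e-10). The membrane anchors SDHC and SDHD fell at 48 h, with 206 and 201 CPM at 48 h, against 238 and 237 CPM on drug, for SDHC and 18.1 and 18.5 CPM at 48 h, against 26.1 and 25.4 CPM on drug, for SDHD. In 451Lu all 4 fell at 120 h.

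Other nuclear genes that rose in A375 at 24 h included NDUFS6, an accessory subunit of complex I (1.42-fold), ATP5D, the delta subunit of the ATP synthase rotor (1.34-fold), and NDUFB8 of complex I (1.31-fold). ATP5D was 85.6 and 77.8 CPM at 24 h, against 59.3 and 62.8 CPM on drug, and by 48 h its value of 0.10 ± 0.063 no longer passed the test. Apart from NDUFA4L2 and ATP5S, described next, the genes that fell most at 48 h were NDUFB1 (1.67-fold) and NDUFA2 (1.66-fold) of complex I and COX5B of complex IV (1.48-fold). ATP5G1 was 80.3 and 89.3 CPM at 48 h, against 122 and 122 CPM on drug (-0.52 ± 0.056), and its group mean was lower at each later time here too. UQCRFS1, the Rieske iron-sulfur protein of complex III, was one of the 2 genes that rose at 6 h, with 70.6 and 79.9 CPM at 6 h, against 64.3 and 59.5 CPM on drug (0.28 ± 0.065).

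The widest changes in A375 rested on few reads or on genes that are not subunits. NDUFV2, a core subunit of complex I, had 188 counts over all 16 libraries and was 2.01 and 2.99 CPM at 24 h, against 0.472 and 0.617 CPM on drug (2.15 ± 0.37); it overlaps NDUFV2-AS1 and RP11-143J12.3, and reads of the partners cannot be told apart without strand. NDUFA4L2, a paralogue of the complex IV subunit NDUFA4 that is known to respond to hypoxia, had 169 counts and was 0.44 and 0.599 CPM at 24 h, against 2.42 and 1.71 CPM on drug (-2.02 ± 0.39). Its falls at 6 h and 48 h were lost without single libraries, for example to adjusted p = 0.0867 without 6 h replicate 1 and 0.0698 without on-drug replicate 1. ATP5S, which the symbol rule takes in although its current symbol is DMAC2L, was 7.6 and 5.9 CPM at 24 h, against 14.8 and 13.7 CPM on drug (-1.05 ± 0.13). NDUFA4 itself was at 228 and 213 CPM at 24 h, against 225 and 229.6 CPM on drug, and -0.04 ± 0.048 did not pass the test.

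COX4I1, the common form of a complex IV subunit, averaged 209 ± 11.2 CPM at 48 h in A375, against 255 ± 3.07 CPM on drug, and 89.7 ± 0.552 CPM at 120 h in 451Lu, against 155 ± 4.4 CPM on drug (SD, n = 2 each). COX6A1, COX6B1 and COX7A2 lay between 46.8 and 148 CPM over the libraries of both lines. In 451Lu at 24 h they fell by 0.23, 0.31 and 0.19 on the log2 scale (adjusted p = 0.00508, 0.000338 and 0.0366). In A375 at 24 h their changes did not pass the test. COX6B2 and COX8C, forms known from testis, did not pass the filter in either line and reached at most 0.276 and 0.365 CPM. NDUFA7, ATP5J2-PTCD1, ATP5L2 and UQCRHL were also untested in both lines, ATP5EP2 was tested only in 451Lu, and NDUFA4L2 and NDUFV2 only in A375, which leaves 76 nuclear members in A375 and 75 in 451Lu. Of the 83 nuclear genes 44 overlap another gene body, and several have processed pseudogenes, so their counts can be shared with copies.

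At 24 h, the one time both lines shared, the nuclear set differed between them. Of 77 members tested in the joint fit 46 had a higher change in A375 than in 451Lu and 1 a lower one (27.4% and 22% of all genes), with a median difference of 0.27, against 0.02 over all genes tested. By complex the counts were 17 of 34 for complex I, 3 of 4 for complex II, 8 of 8 for complex III, 8 of 13 for complex IV and 10 of 18 for complex V. ATP5D showed the widest of these with ample counts: it was 85.6 and 77.8 CPM at 24 h in A375, against 59.3 and 62.8 CPM on drug, and 32.1 and 24.4 CPM at 24 h in 451Lu, against 38.8 and 40.1 CPM on drug (difference 0.96 ± 0.12, adjusted p = 2.46e-07). ATP5D, ATP5E, ATP5G3, ATP5J, COX5A, NDUFB8, NDUFC1 and UQCRFS1 rose in A375 and fell in 451Lu, each with a called difference. The 1 lower change was that of ATP5S.

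Among the mitochondrial genes the line difference at 24 h went both ways. It was -1.16 ± 0.10 for MT-ND6, -1.02 ± 0.17 for MT-ND1 and -0.60 ± 0.18 for MT-CYB, which changed more negatively in A375 (adjusted p = 4.65e-10, 1.81e-05 and 0.00893). The MT-CYB call was lost without A375 on-drug replicate 1 or without 451Lu on-drug replicate 2 (adjusted p = 0.0965 and 0.091). It was 0.64 ± 0.15 for MT-ND3 and 0.45 ± 0.12 for MT-ND4, which changed more negatively in 451Lu. Past the test 4 of the 13 mRNAs, MT-ND3, MT-ND4, MT-ND4L and MT-ND5, had positive differences and 3 negative ones, and both ribosomal RNAs were positive. The calls of MT-ND4L and MT-ND5 were lost without A375 on-drug replicate 2 (adjusted p = 0.0766 and 0.151), and that of MT-RNR1 without 451Lu 24 h replicate 1 (adjusted p = 0.0503).

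**Figure D4:**
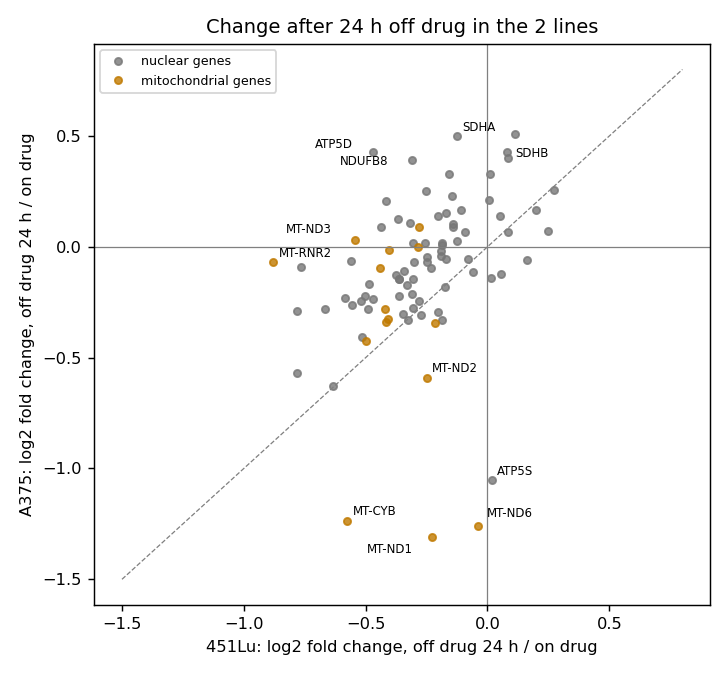
Log2 fold change at 24 h off drug against on drug in A375 (y axis) and in 451Lu (x axis) for each nuclear (grey) and mitochondrial (orange) gene tested in both lines; the dashed line marks equal change. Most nuclear genes lie above the dashed line, and MT-ND1, MT-ND6 and MT-CYB lie below it.

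On drug the 2 lines already differed. In A375 against 451Lu 19 nuclear members were higher and 44 lower of 77 (37.9% and 39.3% of all genes), and of the 13 mitochondrial mRNAs none was higher and 8 were lower. All 8 genes of complex III tested were lower in A375, whereas 7 of 13 of complex IV were higher. SDHD, an anchor of complex II, and NDUFC2 of complex I were lower in A375, with log2 differences of -1.70 ± 0.069 and -1.72 ± 0.067, and NDUFA1 of complex I and COX7B of complex IV were higher, with 1.23 ± 0.070 and 1.08 ± 0.063. These differences are between 2 lines on different drugs.

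The genes that make and keep mitochondrial RNA followed other courses. Of 15 genes of mitochondrial transcription and replication, 11 rose and 2 fell at 6 h in A375 (median 0.34), when 35.1% of all genes rose and 38.1% fell. In 451Lu 1 rose and 8 fell at 120 h (-0.27), when 37.3% of all genes rose and 36.6% fell. At 24 h, the time both lines shared, 9 rose and 3 fell in A375 (36.2% and 36.3% of all genes). In 451Lu 6 rose and 3 fell at 24 h (29.2% and 24.9%). Among the 15 genes was TFAM, which packages the mitochondrial genome and starts its transcription. It was 131 ± 0.487 CPM at 6 h in A375, against 73.9 ± 1.36 CPM on drug. In 451Lu it was 44.3 ± 1.51 CPM at 120 h, against 89.9 ± 1.61 CPM on drug (SD, n = 2 each). TFB2M, a further initiation factor, rose at 6 h in A375 by 1.53 ± 0.061, and POLRMT, the mitochondrial RNA polymerase, rose at 24 h by 1.10 ± 0.058 and at 48 h by 1.06 ± 0.059. TFAM then fell in A375, by 0.33 at 24 h and 0.27 at 48 h against on drug on the log2 scale. At 6 h TFAM and TFB2M were thus higher while 11 of the 13 mitochondrial mRNAs were lower.

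Of 25 genes of mitochondrial RNA processing and stability 15 rose and 3 fell at 6 h in A375 (0.36), against 35.1% and 38.1% of all genes. In 451Lu 1 rose and 21 fell at 120 h (-0.55), against 37.3% and 36.6%. At the shared 24 h 11 rose and 7 fell in A375 (36.2% and 36.3%), and 4 rose and 6 fell in 451Lu (29.2% and 24.9%). LRPPRC, which protects mitochondrial mRNAs from decay, rose at 6 h by 0.47 ± 0.044 and fell at 24 h by 0.45 and at 48 h by 0.35 in A375, and in 451Lu it fell by 0.87 at 72 h and 1.22 at 120 h. PNPT1, a mitochondrial ribonuclease, rose at all 3 times in A375, by 1.07 ± 0.050 at 6 h, 0.69 ± 0.050 at 24 h and 0.70 ± 0.051 at 48 h. In 451Lu it rose at 24 h (0.45 ± 0.074) and fell at 120 h (-0.55 ± 0.080).

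Among regulators of nuclear respiratory genes PPARGC1A was 108 ± 2.46 CPM on drug, 32.5 ± 2.44 CPM at 6 h, 57.9 ± 3.56 CPM at 24 h and 24.6 ± 1.4 CPM at 48 h in A375 (SD, n = 2 each). In 451Lu it was 34.7 ± 2.78 CPM on drug, 8.83 ± 0.557 CPM at 24 h, 3.94 ± 0.862 CPM at 72 h and 2.41 ± 0.338 CPM at 120 h. It fell at every time in both lines, by 4.41-fold at 48 h and 14.4-fold at 120 h. MITF was also lower than on drug at every time, by 9.28-fold at 48 h in A375 and 2.1-fold at 120 h in 451Lu. In 451Lu the courses parted after 24 h, since MITF averaged 587 CPM on drug, 143 CPM at 24 h, 278 CPM at 72 h and 279 CPM at 120 h and rose from 24 h to 72 h (0.95 ± 0.064). MYC, which is known to drive mitochondrial biogenesis, rose by 1.78 ± 0.054 at 24 h in A375. In 451Lu it fell by 1.34 at 120 h, a time at which A375 was not sampled. NRF1, a factor that binds many respiratory gene promoters, rose at 6 h in A375 (0.42 ± 0.099) and fell at 120 h in 451Lu (-0.70 ± 0.11). Neither of these times was sampled in the other line. Of the 16 regulators tested 12 rose and 4 fell at 6 h in A375, against 35.1% and 38.1% of all genes. In 451Lu 7 rose and 8 fell at 120 h, against 37.3% and 36.6% of all genes. At the shared 24 h 9 rose and 5 fell in A375 (36.2% and 36.3%), and 3 rose and 5 fell in 451Lu (29.2% and 24.9%).

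Other mitochondrial gene groups of 451Lu fell with the nuclear chain at 120 h: 58 of 77 mitochondrial ribosome proteins fell and 5 rose (-0.57), 36 of 48 assembly factors fell and none rose (-0.53), and 16 of 18 genes of the TCA cycle fell and 1 rose (-0.61). CS, the citrate synthase gene, fell by 2.17-fold, and SLC25A5, an ADP/ATP carrier, by 3.75-fold. Of 21 electron carrier and ATP exchange genes 15 fell and none rose. In A375 at 24 h 43 of 76 mitochondrial ribosome proteins rose and 8 fell (0.24), 10 of 18 genes of the TCA cycle rose and 3 fell (0.15), 18 of 49 assembly factors rose and 16 fell (0.01), and 5 of 21 electron carrier and exchange genes rose and 9 fell. At the same 24 h in 451Lu 22 of 77 mitochondrial ribosome proteins rose and 18 fell (-0.04), and 2 of 18 genes of the TCA cycle rose and 10 fell (-0.19). There 3 of 48 assembly factors rose and 15 fell (-0.16), and 3 of 21 electron carrier and exchange genes rose and 11 fell. CYCS encodes the cytochrome c that carries electrons from complex III to complex IV. It rose at 6 h in A375 (0.69 ± 0.043) and fell at 120 h in 451Lu (-0.75 ± 0.065), which are unlike times. The percentages of all genes called, given above for each time, are the background of these counts.

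Some promoters of the nuclear genes hold known sequence features that the choice by symbol did not use. Of the 83 genes 64 matched a promoter in the RefSeq table of GRCh38.p14, which spans 250 bases before and 50 after the start. The letters GCGCNTGCG, a form of the NRF1 site, stood on either strand in 22 of them (34.4%), against 7.47% of 35116 promoters of the table. The letters CCGGAAG, the core bound by ETS factors such as GABP, stood in 19 (29.7%, against 10.3%), and AAGATGGCG, a form of the YY1 site, in 8 (12.5%, against 1.75%). Both of the first pair stood in 5, and none of the 3 in 26, ATP5G1, COX7C and NDUFB6 among them. The 35116 promoters were not restricted to protein-coding genes or to the genes counted here, so these shares compare unlike sets. How far that bears on the shares was not tested. Below are the 130 bases before the start of 1 gene per complex, shown because their promoters hold such a match. Of these genes COX8A, a small subunit of complex IV, has not been described: it was 60.1 and 54.8 CPM at 120 h in 451Lu, against 119 and 122 CPM on drug, and fell at every time in both lines. Capitals mark the matches of the 3 motifs, in either orientation, that lie within the printed bases. SDHB and NDUFS7 also hold the YY1 letters, which begin 10 and 17 bases after the start and so are not printed.
NDUFS7, GRCh38.p14, chr19:1383777-1383906, plus strand: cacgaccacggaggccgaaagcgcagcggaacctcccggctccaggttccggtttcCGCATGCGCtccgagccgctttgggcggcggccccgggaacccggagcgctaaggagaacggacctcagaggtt
SDHB, GRCh38.p14, chr1:17054033-17054162, minus strand: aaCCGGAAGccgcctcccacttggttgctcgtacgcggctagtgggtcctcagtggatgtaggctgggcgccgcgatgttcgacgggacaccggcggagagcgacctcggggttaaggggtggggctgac
UQCRFS1, GRCh38.p14, chr19:29213152-29213281, minus strand: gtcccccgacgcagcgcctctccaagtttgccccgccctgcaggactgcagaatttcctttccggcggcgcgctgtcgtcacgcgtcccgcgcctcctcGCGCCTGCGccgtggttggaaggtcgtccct
COX8A, GRCh38.p14, chr11:63974490-63974619, plus strand: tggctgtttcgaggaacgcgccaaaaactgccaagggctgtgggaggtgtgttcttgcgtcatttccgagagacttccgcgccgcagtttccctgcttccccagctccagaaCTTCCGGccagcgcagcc
ATP5C1, GRCh38.p14, chr10:7788047-7788176, plus strand: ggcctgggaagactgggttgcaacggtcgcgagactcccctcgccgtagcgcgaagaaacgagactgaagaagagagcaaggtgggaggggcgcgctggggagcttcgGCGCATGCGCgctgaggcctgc
A match is a description of letters, not of binding. At 120 h in 451Lu the median log2 fold change was -0.63 for the 21 tested genes with the NRF1 letters and -0.70 for the 39 without, and it was -0.68 for the 19 with the ETS letters and -0.64 for the 41 without. In A375 at 24 h the medians were -0.06 for the 21 with and -0.06 for the 40 without the NRF1 letters. At 24 h in 451Lu they were -0.19 for the 21 with and -0.31 for the 39 without them. With the ETS letters the medians at 24 h in A375 were -0.10 for 19 genes, against -0.02 for the 42 without. For the 7 tested genes with the YY1 letters the median was 0.21 at 24 h in A375, against -0.10 for the 54 without, and 0.00 at 24 h in 451Lu, against -0.30 for the 53 without. At 120 h in 451Lu it was -0.61 with and -0.68 without them. No test was made on these groups. NDUFS7 in this set fell at every time in both lines, whereas SDHB rose in A375 at 24 h and 48 h and fell in 451Lu at 72 h and 120 h.

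**Figure D5:**
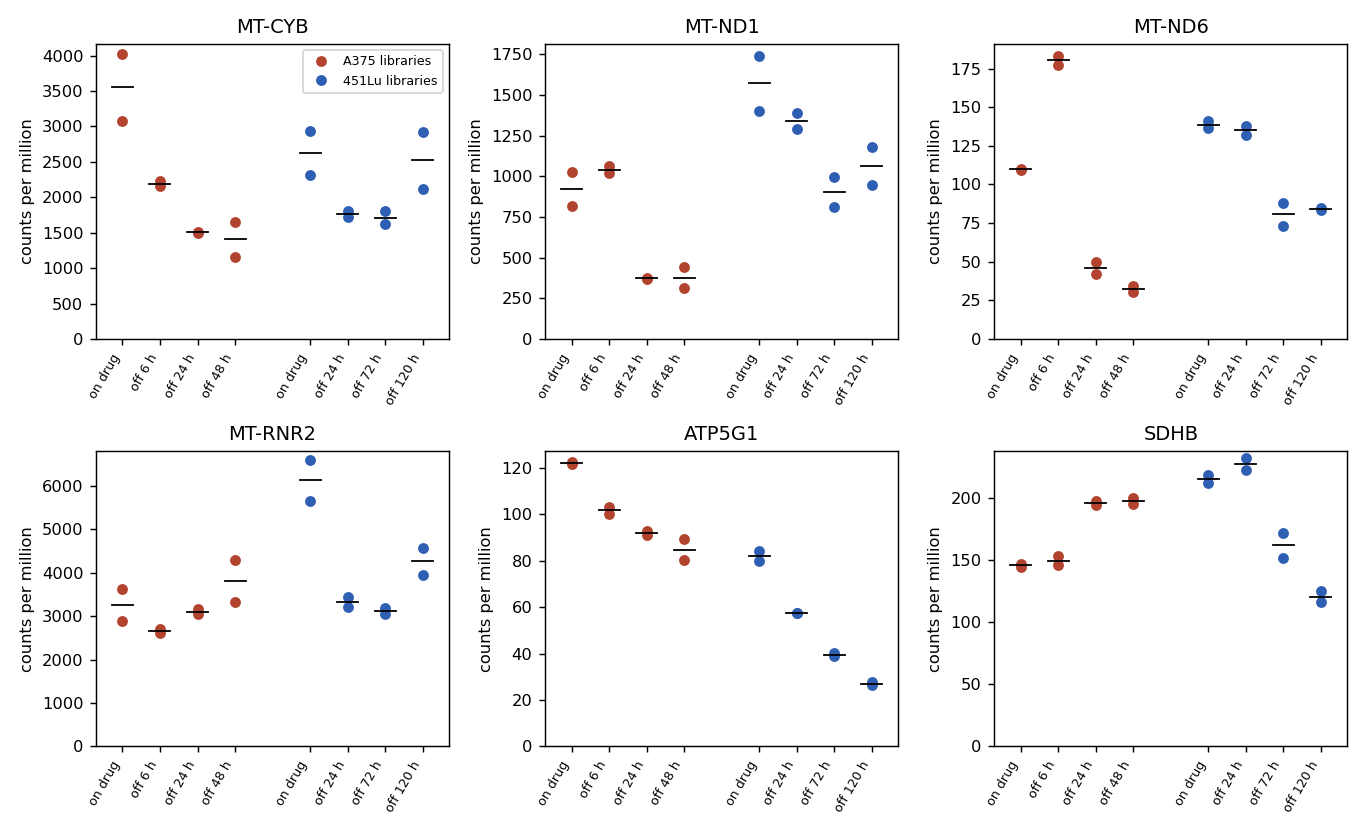
CPM (y axis, from 0) of 4 mitochondrial and 2 nuclear genes in each library by group (x axis); points are the 2 libraries and bars their mean. MT-ND6 was above its on-drug level at 6 h and below it at 24 h and 48 h in A375; the mean of ATP5G1 was lower at each later time in both lines; SDHB was higher at 24 h and 48 h in A375 and lower at 72 h and 120 h in 451Lu.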

How the data were processed

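RNA was sequenced from 16 libraries in 8 groups of 2. Gene counts were used as the authors deposited them, as 1 table of whole numbers for 30813 genes. Per the submitters' processing notes, TopHat2 2.1.0, Bowtie 1.0.0 and GRCh38 were used; which counter, annotation release, strand setting and library preparation were used is not given in the sources used here. Totals of 9714190 to 16691725 counts per library set the precision, and intervals were not computed because each group has only 2 libraries.

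Groups were taken from the labels. Each line was fitted as 1 factor with 4 groups in edgeR 4.0.16 with limma 3.58.1 in R 4.3.3. TMM factors, filterByExpr (minimum count 10, minimum total 15) and the quasi-likelihood test with Benjamini-Hochberg adjustment over all genes tested were used, with 14449 genes in A375 and 13851 in 451Lu. Line comparisons came from a joint fit of 15481 genes. Adjusted p-values in the text come from this edgeR test unless another tool is named. The fit was tested on simulated data. CPM used the same factors. Alternatives were RLE factors, scaling without the mitochondrial chromosome, no filter, DESeq2 1.42.0, a test against a 1.5-fold change, a joint fit, the replicate block and leaving out each library.

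The members and lists were chosen with earlier results of these data known, and the list of mitochondrial ribosome proteins was added after the counts had been seen, so no test was made on a list as a whole. The lists hold 170 entries, of which 166 were found among the genes counted. Genes were named by rule: every mitochondrial mRNA and ribosomal RNA, the 5 called nuclear members with the largest change in each direction per comparison, the member with the smallest p per complex at the last time, subunits with tissue forms, untested members, the 2 genes with the smallest p per list and direction, and TFAM, POLRMT, LRPPRC, PPARGC1A, NRF1, MITF, MYC and CYCS. SDHC, SDHD, ATP5E, ATP5G2, ATP5G3, ATP5J, NDUFC1, NDUFA1, COX7B and COX8A fall outside it and were chosen after their values were seen. COX4I2, COX6A2, COX7A1 and COX7B2 were not analysed here. Promoters come from RefSeq on GRCh38.p14.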

Additional observations from a re-analysis of the deposited data

Results flagged for a closer look

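The change at 24 h off drug against on drug differed between A375 and 451Lu, by the interaction contrast of edgeR's quasi-likelihood test with all genes adjusted together, for 47 nuclear and 10 mitochondrial members. The mitochondrial 10 include MT-TL1, which rests on at most 20 counts in a library. For 8 nuclear genes each line's own change also passed the test, upward in A375 and downward in 451Lu. The difference of their log2 fold changes, A375 minus 451Lu, was 0.96 for ATP5D, 0.77 for NDUFB8, 0.69 for ATP5G3 and 0.57 for NDUFC1. It was 0.49 for COX5A, 0.44 for ATP5J, 0.41 for ATP5E and 0.39 for UQCRFS1.

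Among the mitochondrial genes the difference was negative for MT-ND6 (-1.16), MT-ND1 (-1.02) and MT-CYB (-0.60). It was positive for MT-RNR2 (0.88), MT-ND3 (0.64), MT-ND4 (0.45), MT-ND5 (0.43), MT-ND4L (0.41) and MT-RNR1 (0.35). Line, drug and culture cannot be told apart in these differences. Groups of 2 libraries are too small for a search for single deviating libraries.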

How the results depend on the processing

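Of 6261 values that named genes took under alternatives, 5649 kept their side of the threshold, 527 lost the call and 83 gained it. In the remaining 2 the sign turned while the main or the alternative value was called. Any sign change between values that were both not called is among the 5649 and was not counted apart. The 2 were from 24 h to 48 h in A375. There MT-CYB ran from -0.39 to 0.14 and MT-ND1 from -0.27 to 0.24, each between leaving out 48 h replicate 2 and 48 h replicate 1. Counts of members called stayed within 1.5 times those of the main fit under RLE factors, scaling without the mitochondrial chromosome, no filter, the joint fit and the replicate block. In the main fit 66 nuclear members fell and 0 rose in 451Lu at 120 h, and 42 fell and 8 rose in A375 at 48 h. The replicate numbers were not taken to pair the libraries: correlations of same-numbered deviations lay between -0.039 and 0.023 in A375, and in 451Lu they were 0.13 to 0.14 among off-drug groups and -0.019 to 0.0098 with the on-drug group. DESeq2 called 24 nuclear members from 6 h to 24 h in A375, 13 nuclear and 6 mitochondrial from 24 h to 48 h, and 5 mitochondrial differences between lines. Against a 1.5-fold change, far fewer members passed, because most changes were smaller. In A375 there were 1 nuclear and 1 mitochondrial at 6 h, 3 and 3 at 24 h, 2 and 6 at 48 h, 1 and 3 from 6 h to 24 h, and 0 and 1 from 24 h to 48 h. In 451Lu there were 3 and 1 at 24 h, 13 and 3 at 72 h, 33 and 1 at 120 h, 0 and 1 from 24 h to 72 h, and 0 and 0 from 72 h to 120 h. Between lines there were 27 and 3 on drug, and 3 and 3 in the 24 h change. Leaving out 1 library gave 26 to 35 nuclear members from 6 h to 24 h and 14 to 33 from 24 h to 48 h in A375, and in 451Lu 5 to 10 mitochondrial members at 72 h and 3 to 9 from 72 h to 120 h. With every gene weighted equally in place of summed, the log2 ratio of mitochondrial to nuclear RNA changed by -0.19 at 6 h in A375, 0.076 at 72 h and 0.47 at 120 h in 451Lu, and 0.20 from 24 h to 72 h in 451Lu; the step from 6 h to 24 h in A375 turned from 0.08 to -0.23, and the cause was not tested. With 2 libraries a group, small changes near the threshold are the least certain.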
